A study of Mus musculus with 16 samples.

Results

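Open chromatin at 46 genes of the cell cycle and of DNA replication was examined in haematopoietic stem cells (HSCs) from young and old mice, before and after transplantation. The genes cover E2F factors and pocket proteins, origin licensing, origin firing and DNA synthesis, cyclins with their kinases and phosphatases, mitosis, and the FOXM1, MYBL2 and MYC factors. Peaks of 16 ATAC-seq libraries were merged where they overlapped, and a region was kept when 2 or more libraries called it. A region belonged to the set when its nearest protein-coding gene, within 100 kb of the median peak summit, was one of the 46. This gave 76 of 33773 regions, and they lay at 42 of the 46 genes.

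ATAC-seq marks open DNA by the insertion of a transposase. The 4 groups of 4 libraries were young pre and old pre, HSCs sorted from male B6 donors, and young post and old post, HSCs recovered 3 months after transplantation into young irradiated BJ recipients. Young donors were 8 to 12 weeks old and 3 to 4 of them were pooled per library, whereas each old library came from 1 donor of 24 months. For each post library, HSCs were given to 5 recipients together with helper marrow cells of BJ mice depleted of Sca-1, and the recipients' marrow was pooled. Libraries of the same age and number share their donors by the series design. No label states a sort by donor marker after transplantation, so cells of the recipients or helpers cannot be told apart from donor cells in the post libraries.

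The value compared was whether a library's peak list called a region. The lists held 5687 to 32530 peaks, and reads per library were not used here, so the depth behind a list is unknown. The 3 shortest lists were old pre 4 with 5687 peaks, young pre 4 with 9614 and old post 4 with 14008. An uncalled region is not shown to be closed. All pre libraries were transposed on days 1 to 3 and all post libraries on days 4 to 6, so stage and day cannot be told apart. Day 1 held only old pre 1 and 2, day 3 only young pre 4 and day 4 only old post 1 and 2. Age and day thus partly coincided. Of 10 HSC marker genes, 9 had a region, the exception being Ly6a. Of 5 T cell markers 1 had a region, and Cd3e, Cd3g, Cd4 and Cd8a had none. Regions were found at 2 of 5 B cell, 3 of 6 granulocyte and monocyte, 3 of 4 erythroid and 5 of 5 stromal and endothelial markers. In single libraries, 0 to 3 of the granulocyte and monocyte genes and 1 to 5 of the stromal genes were called, and the ranges of the 4 groups overlapped. The part of other cells in the values below was not tested.

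Adult HSCs are mostly quiescent, and they divide when blood must be rebuilt. On cell cycle entry, cyclin-dependent kinases phosphorylate the pocket proteins RB1, RBL1 and RBL2, which frees activating E2F factors to drive genes of DNA replication. CDC6, CDT1 and the MCM helicase then license origins, and CDC45 and the GINS complex turn the loaded helicase into an active one. Genes used in G2 and mitosis are switched later, through promoters that often hold a cell cycle homology region (CHR) next to CCAAT boxes bound by NF-Y.

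Promoter windows show these 2 classes of sequence. RefSeq windows on GRCm38.p6, from 250 bases before to 50 after the gene start, were found for 36 of the 46 genes, and each of the 36 overlapped an open region. E2F words (TTTCGCGC, TTTGGCGC, TTTCCCGC and TTTGCCGC, on both strands) lay in 15 of 36 member windows (41.7%), against 4.39% of the 11388 genes whose window overlapped a region. Over all 32619 promoter windows of the same length the share was 2.28%. The CHR word TTTGAA lay in 14 of 36 member windows (38.9%), against 11.6% of open windows and 17.6% of all windows. CCAAT lay in 27 of 36 (75.0%), against 38.8% and 37.6%. The 4 E2F words overlap one another on opposite strands where a site is a palindrome, so each window was counted once.

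The 160 bases before the gene start are shown for 6 members, 5′ to 3′ on the gene's strand, with every searched word in capitals. Mcm5 and Mcm6, subunits of the MCM helicase, show the replication class. Cdk1, the kinase that drives mitotic entry, holds both classes. Cdc20, an activator of the anaphase-promoting complex, and Top2a, a topoisomerase that untangles sister chromatids, show the mitotic class. E2f1, an activating E2F factor, is shown because the region over its start had the smallest p of any member between young and old donors before transplantation.
Mcm5, chr8:75109349-75109508, plus strand: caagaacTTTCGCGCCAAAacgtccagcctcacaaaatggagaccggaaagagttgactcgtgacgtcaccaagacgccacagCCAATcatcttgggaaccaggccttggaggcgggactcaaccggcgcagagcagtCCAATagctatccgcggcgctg
Mcm6, chr1:128359706-128359865, minus strand: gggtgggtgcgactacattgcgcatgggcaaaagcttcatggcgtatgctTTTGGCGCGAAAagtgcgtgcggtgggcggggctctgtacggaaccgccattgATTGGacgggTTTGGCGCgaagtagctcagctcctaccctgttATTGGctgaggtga
Cdk1, chr10:69352913-69353072, minus strand: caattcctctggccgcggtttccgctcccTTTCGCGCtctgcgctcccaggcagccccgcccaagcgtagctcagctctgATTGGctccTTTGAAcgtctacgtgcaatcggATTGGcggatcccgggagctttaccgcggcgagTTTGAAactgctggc
Cdc20, chr4:118437344-118437503, minus strand: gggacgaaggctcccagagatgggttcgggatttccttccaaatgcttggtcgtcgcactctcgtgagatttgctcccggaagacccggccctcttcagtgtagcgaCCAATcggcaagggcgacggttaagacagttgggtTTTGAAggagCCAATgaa
Top2a, chr11:99024190-99024349, minus strand: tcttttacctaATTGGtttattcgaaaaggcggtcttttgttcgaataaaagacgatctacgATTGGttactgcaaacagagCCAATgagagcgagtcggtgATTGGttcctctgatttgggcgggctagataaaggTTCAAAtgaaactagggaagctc
E2f1, chr2:154569427-154569586, minus strand: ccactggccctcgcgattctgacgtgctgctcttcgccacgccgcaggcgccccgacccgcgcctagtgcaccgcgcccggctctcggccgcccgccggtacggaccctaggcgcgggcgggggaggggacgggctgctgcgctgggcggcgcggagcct

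In Mcm5, 2 overlapping E2F words began 153 bases before the gene start, and 2 CCAAT boxes followed 77 and 22 bases before it. Mcm6 held 3 E2F words, of which the nearest began 47 bases before the start. In Cdk1 an E2F word began 131 bases before the start and the CHR words 71 and 15 bases before it. The CHR word of Cdc20 lay between its 2 CCAAT boxes, and Top2a had 4 CCAAT boxes before a CHR word on the other strand. None of the searched words lay in the E2f1 stretch, which says only that these letters are absent from it. The RefSeq start used for E2f1 lies inside the annotated gene. Its stretch therefore does not reach the gene's outer end, at chr2:154569892, or the sequence beyond it.

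The words set licensing genes apart from mitotic genes, and other roles were mixed. E2F words lay in 7 of 8 licensing windows, the exception being Mcm2, in 4 of 7 windows of E2F factors and pocket proteins, and in 0 of 7 mitotic windows. The CHR word lay in 6 of 7 mitotic windows, Bub1 being the exception, and in 1 of 8 licensing windows (Mcm2). CCAAT was found in all 7 mitotic windows and in 6 of 8 licensing windows. Of the 5 windows of origin firing and DNA synthesis, 0 held an E2F word and 4 held CCAAT. The CHR word also lay in 3 of 7 windows of E2F factors and pocket proteins. Of the 7 windows of cyclins, CDKs and CDC25, 3 held an E2F word and 2 the CHR word. These are descriptions of letters and not of bound sites.

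**Figure D1:**
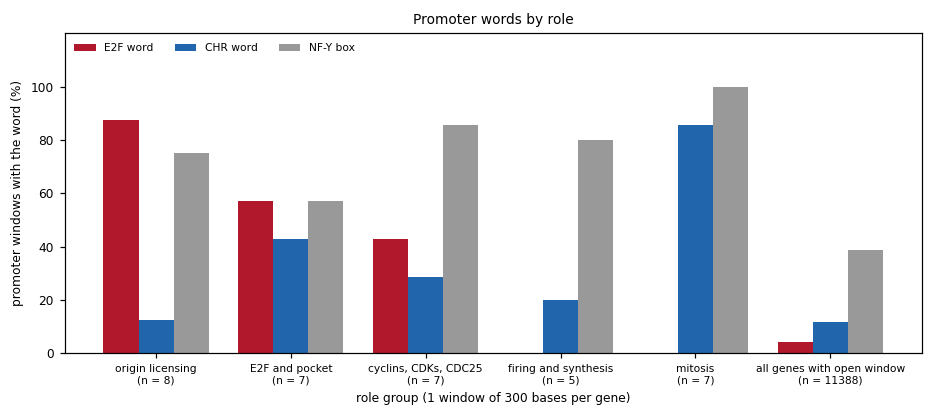
Share of promoter windows (y axis, percent) that hold an E2F word, the CHR word or the NF-Y box, for 5 role groups of members and for all 11388 genes with an open window (x axis). E2F words stand in 87.5% of licensing windows and 0.0% of mitotic windows, and the CHR word in 85.7% of mitotic windows.

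All 42 genes with a region had at least 1 at a gene end, that is, with the summit within 1 kb of either end of the gene. Of the 76 regions, 44 lay at gene ends, 13 within genes and 19 outside. Members were called widely: 24 of 76 (31.6%) were called in all 16 libraries, against 15.6% of all regions. At gene ends, 20 of 44 (45.5%) were called in all 16, against 31.7% of the 10887 regions at gene ends. With 15 libraries counted too, the gene-end shares were 70.5% and 50.3%. Away from gene ends the shares were closer: 2 of 13 within genes (15.4%) and 4 of 19 outside (21.1%) were called in 15 or 16 libraries, against 16.2% and 13.1%. The 13 members called in 15 libraries were all missed by old pre 4, the shortest list, as were 98.5% of all regions called in 15.

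**Figure D2:**
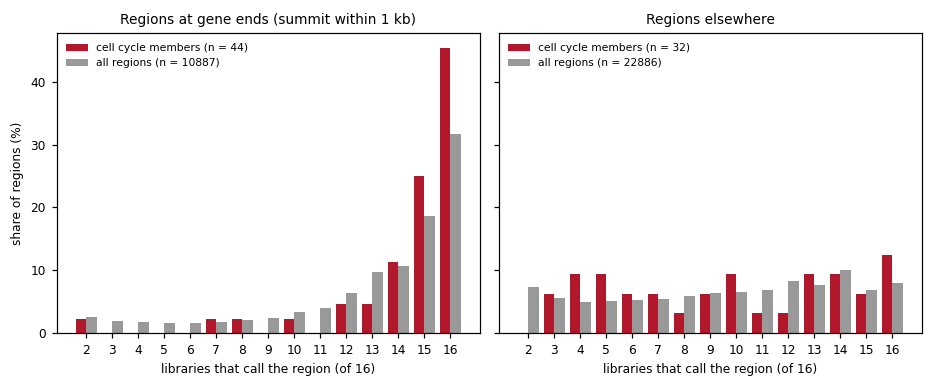
Share of regions (y axis, percent) by the number of libraries that call them (x axis, 2 to 16), for members (red) and all regions (grey), at gene ends on the left and elsewhere on the right. At gene ends 45.5% of the 44 members are called in all 16 libraries, against 31.7% of all, and elsewhere both sets are spread over the whole range of library numbers.

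Of the 46 genes, 4 had no region of their own, because the summit was assigned to a neighbour. For Mcm4, Cdk2 and Foxm1 that neighbour was nearer to the summit. The start of Orc1, the largest subunit of the origin recognition complex, lay under a region assigned to Prpf38a and called in 16 libraries. Its summit lay inside Orc1, 3569 bases from the nearer end, and the tie went to the gene whose end was nearer. Mcm4, another helicase subunit, shared the region of Prkdc, also called in 16. At Cdk2, the kinase of S phase entry, 2 regions lay near the gene, with summits 1504 and 97 bases off its ends, and were assigned to Pmel; they were called in 16 and 15 libraries. At Foxm1, a factor of G2 and mitotic genes, the region nearest its end belonged to Rhno1 and was called in 11 libraries, namely 2 young pre, 2 old pre, 4 young post and 3 old post. The first 3 genes thus had a region at or near them in 15 or 16 libraries, under another gene's name.

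Licensing genes were the most evenly called group. All 8 of their regions, at Cdc6, Cdt1, Mcm2, Mcm3, Mcm5, Mcm6 and Mcm7, were called in 15 or 16 libraries. The 3 regions called in 15 were those at Mcm2, at Mcm3 and within Cdc6. Origin firing and DNA synthesis had 12 regions, of which 6 were called in 15 or 16 libraries. Those 6 lay at gene ends: of Cdc45 and Gins2, parts of the active helicase, of Gins1, of Pcna, the sliding clamp, and of Rrm1 and Rrm2, the subunits of ribonucleotide reductase. Tyms, which makes thymidylate, had a single region, called in 12.

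E2F factors and pocket proteins were less evenly called than licensing genes. They had 26 regions, of which 6 (23.1%) were called in 15 or 16 libraries and 9 (34.6%) in 8 or fewer. These shares lay near those of all regions, 26.2% and 31.1%. Their 5 regions called in all 16 lay at E2f1, within E2f2, and at E2f3, E2f8 and Rbl2. E2f4, an E2F factor that works with pocket proteins in repression, had 1 region, called in 13 libraries, and Rbl1 had its gene end called in 12. E2f2, an activating factor, had 6 regions: that within the gene 2540 bases before a RefSeq start was called in all 16, and the others in 5 to 12. E2f2's outermost gene end carried a region of 221 bp that only 8 libraries called.

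Cyclins, CDKs and CDC25 had 14 regions, with 7 called in 15 or 16 libraries, and mitotic genes had 12, also with 7. The ends of Ccna2 and Ccnb1, cyclins of S phase and mitosis, of the phosphatase genes Cdc25a and Cdc25b, and of the mitotic genes Aurka and Cdc20 were called in all 16. The ends of Ccnb2, Bub1, Bub1b and Plk1 were each called in 14, and missed by young pre 4 and old pre 4. Myc and Mycn were called in every library, and Mybl2, a factor of G2 genes, in 15.

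**Figure D3:**
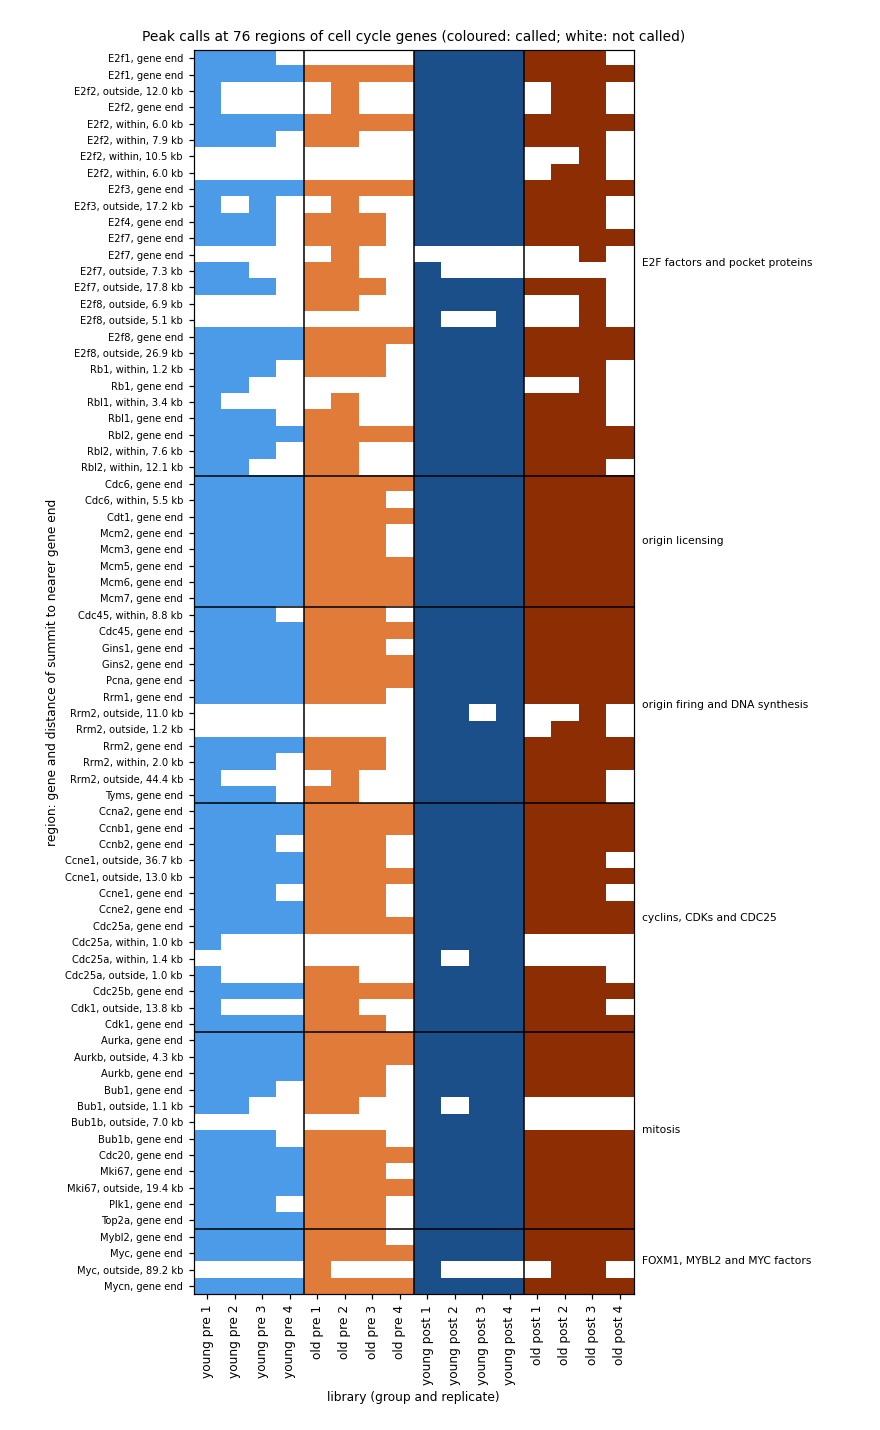
Peak calls (coloured) or no call (white) at the 76 member regions (rows, grouped by role, with the distance of the summit to the nearer gene end) in the 16 libraries (columns, by group). Licensing rows are nearly full, the E2F and pocket protein rows have most gaps, and old pre 4, the column of the shortest list, calls 24 regions.

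The number of members called per library followed list length. In order of library number it was 66, 58, 55 and 38 for young pre and 60, 65, 49 and 24 for old pre. The post libraries called 75, 70, 71 and 73 (young) and 60, 65, 71 and 45 (old). Each library's calls were then set against the number that its calls at all regions found in as many libraries would give. On the 52 members that varied, this score was -7.59, -6.27, -3.04 and -0.45 percentage points in old pre, and 0.17, 3.38, -0.70 and 1.42 in young pre. The 4 old pre libraries were thus all below 0, and young pre lay around it. In young post the score was 0.82 to 5.85 and in old post -2.29 to 3.56. Scores balance out over the 16 libraries, are shown with no test, and 0 is no baseline. Old pre 4 had little room to depart from 0.

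Before transplantation, old and young HSCs were compared for differences with donor age. The two-sided test on calls was exact and conditional and weights libraries by list length, with Benjamini-Hochberg adjustment over all regions tested and a threshold of 0.05. Of 11 members tested, 0 passed, and 0 of all 9407 regions passed (0.0%); 1 member and 215 regions had an unadjusted p under 0.05. The member was the region over the RefSeq start of E2f1 (chr2:154568613-154569503), with the sequence shown above partly under it. That start lies inside the annotated gene, whose outer end is at 154569892. The start region was called in young pre 1, 2 and 3 and in none of the 4 old pre libraries. All 4 young post libraries and old post 1, 2 and 3 called it too. Old pre 1 and 2, which did not call it, had lists of 27302 and 30520 peaks, longer than those of young pre 2 and 3. The exact p was 0.0034 and the adjusted p 0.360, with 3 of 4 young and 0 of 4 old libraries calling it.

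The other E2f1 region, 628 bases before that start (chr2:154569777-154570824), was called in all 16 libraries. It covers the outer end of the gene, with its summit 162 bases from that end. The next p was that of an E2f3 region 17225 bases before its start, called in 2 young pre libraries and 1 old pre library (exact p = 0.234), and the other 9 members had exact p = 1.0. Among those 9, a Cdk1 region 13766 bases outside the gene was called in 1 young pre and 2 old pre libraries. Of the 11 members tested, 2 (18.2%) were called more in old than list length gives, against 36.7% of all regions tested.

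Between old post and young post, 0 of 10 members passed, against 24 of 5163 regions (0.465%). A region of 379 bp, 7009 bases before the start of Bub1b (chr2:118591046-118591424), was called in all 4 young post libraries and in no other. Bub1b encodes a kinase of the spindle checkpoint. A region of 370 bp within Cdc25a (chr9:109876230-109876599), 953 bases past its start, was called in young pre 1, in all 4 young post libraries and in no old library. The exact test, which allows for list length, gave p = 0.347 and adjusted p = 1.0 for each of these 2. All-or-none patterns were common: 513 of the 5163 regions tested (9.94%) were called in 4 of 4 young post and 0 of 4 old post libraries. Bub1b was 1 of 76 members (1.32%) called in young post alone, against 0.743% of all regions. The region 89239 bases outside Myc, a driver of growth, was called in old pre 1, young post 1 and old post 2 and 3, with exact p = 0.056 and adjusted p = 1.0.

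Post against pre asked how HSCs differed after a round of rebuilding blood in a new host. In young donors 0 of 16 members passed, against 66 of 8867 regions (0.744%). In old donors 0 of 14 passed, against 1 of 10384 (0.00963%). With both ages, 0 of 23 members passed, against 61 of 15182 regions (0.402%). An unadjusted p under 0.05 was found in 853 regions (5.62%) and 2 members (8.70%). Of these 2 members, that with the smaller p was an E2f7 region, 7304 bases outside the gene (chr10:110794078-110795166). E2f7 encodes a repressive E2F factor. Young pre 1 and 2, old pre 1 and 2 and young post 1 called the region and no old post library did, so 4 of 8 pre and 1 of 8 post libraries called it. In young donors alone the exact p was 0.0054 (adjusted p = 0.253). Over both ages its exact p was 0.00047 with adjusted p = 0.0815. The call passed in 2 of 24 alternatives, with regions of at least 3 libraries (adjusted p = 0.0387) and without young post 1 (0.0414). This fit counts the 2 libraries of a donor as independent.

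The other was a Bub1 region 1107 bases before the gene (chr2:127832693-127833074), where BUB1 is a kinase of the spindle checkpoint. It was called in young pre 1 and 2, old pre 1 and 2 and young post 1, 3 and 4, and in no old post library (exact p = 0.018, adjusted p = 0.559). The gene ends of E2f7 and Bub1 themselves were called in 14 libraries each. The E2f1 start region, absent from old pre, was called in 3 of 4 old post libraries, with exact p = 0.029 and adjusted p = 0.589 in old donors. Rrm2 had 5 regions. Its gene end was called in 15 libraries, whereas a region 1242 bases before the start was called in all 4 young post libraries, old post 2 and 3 and no pre library, with exact p = 0.059 and adjusted p = 0.710. An E2f2 region (chr4:136189963-136190386) was called in 6 post libraries and 0 pre ones, with the same p. Of the regions tested in young donors, 2409 (27.2%) had a call in 4 of 4 post libraries and 0 of 4 pre, so this pattern was common. The Rrm2 region 44367 bases outside the gene was called in 1 young pre, 1 old pre, 4 young post and 3 old post libraries.

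Old against young with both stages, which again counts the 2 libraries of a donor as independent, gave 0 of 23 members, against 41 of 15182 regions (0.27%). The gene end of Rb1, the founding pocket protein, held a region (chr14:73325961-73326428) called in young pre 1 and 2, in all 4 young post libraries, in no old pre library and in old post 3 alone. Its exact p was 0.022 and its adjusted p 0.750. The Cdc25a region named above had exact p = 0.038 and adjusted p = 0.812. The larger Rb1 region, 1239 bases inside the gene, was called in 13 libraries and was missed only by young pre 4, old pre 4 and old post 4. No member passed the presence test in any of the 6 comparisons.

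Peak size was compared where every library had a value. The area of each peak, a deposited score that grows with both height and width, was ranked in each library among the 5262 regions called in all 16, and the rank is given as a percentile, where 100 is the largest. Ranks set genes in order within a library and carry no absolute level. The 24 members called everywhere spanned the whole range. Myc had the highest median, 98.8, with E2f3, an activating factor, at 98.2 and Mycn, a relative of Myc, at 96.8. They were followed by the region 4334 bases outside Aurkb, a mitotic kinase, at 91.9, and by Pcna at 90.4 and Mcm7 at 90.4. The lowest medians were those of Cdc6 at 5.28, E2f8 at 7.61 and E2f1 at 17.3. The place of E2f8 held only for its largest peak: with the areas of all its peaks summed, it ranked 57.5 to 61.4 in young post and 4.88 to 56.8 in the other 12 libraries. E2F factors and licensing genes were found both high (E2f3, Mcm7) and low (E2f1, Cdc6) in the order.

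Neighbours in this order overlapped. Pcna ranked 83.2 to 97.0 and Mcm7 55.1 to 94.2 over the libraries. Mcm5 and Mcm6 had medians of 41.3 and 35.3, with ranges of 10.8 to 53.0 and 15.2 to 45.0. Of the mitotic gene ends, only those of Cdc20 and Aurka were ranked here, at 29.0 and 26.9, near Ccnb1 at 26.2 and Ccna2 at 24.4. The other mitotic gene ends were not called in all 16 libraries. With the 3 shortest lists left out, mitotic gene ends were spread widely among 14499 regions. Their mean ranks in young pre ran from 18.5 at Bub1b to 71.0 at Cdc20. Cdc6 lay between 1.04 and 10.4 in all 16 libraries.

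The top ranks went with width. The merged regions were 6685 bp at Mycn, 5254 bp at Myc and 3935 bp at E2f3, against a median of 1076.5 bp for members and 830 bp for all regions. In old pre 4 and young pre 4 these domains were cut. There the widest Mycn peak was 484 bp and 882 bp, in that order, against 2915 to 6685 bp in the 13 longer lists. Mycn's rank was 26.2 in old pre 4, 34.2 in young pre 4 and 89.2 in old post 4, and 95.6 to 99.0 in the other 13. With the areas of all peaks in the region summed, Mycn ranked 72.7 in old pre 4 and 79.9 in young pre 4, and 95.9 to 99.1 in the other 14. E2f3 was cut in these lists as well. Its widest peak was 775 bp in old pre 4 and 1048 bp in young pre 4, against 2099 to 3934 bp in the 13 longer lists. In old post 4 it was 2390 bp, within that range. E2f3 ranked 92.0 in old pre 4 and 92.1 in young pre 4. Its lowest rank was 88.9 in young pre 2, where the region held 3 peaks, the widest 2099 bp. With summed area E2f3 ranked 92.9 in young pre 2 and was lowest in old pre 4, at 90.4.

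**Figure D4:**
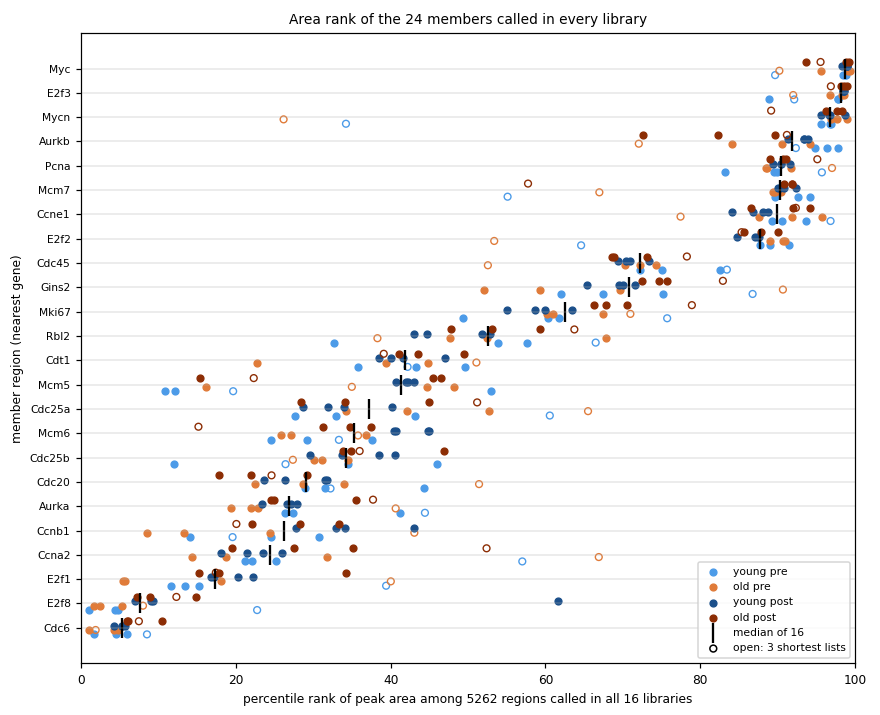
Percentile rank of peak area among the 5262 regions called in all 16 libraries (x axis) for the 24 members called everywhere (rows, by median), with a point per library, the groups by colour, the median as a bar and the 3 shortest lists as open points. Myc, E2f3 and Mycn lie at the top and Cdc6 and E2f8 at the bottom, E2f8 only because its largest peak alone is ranked.

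Group differences in these ranks were tested with limma, in which donor was a random block, and p-values were adjusted over the 5262 regions. In each of the 7 contrasts 0 of 24 members passed. The share of all regions that passed was 0.893% for old against young pre, 0.0% for old against young post, 0.589% for post against pre in young, 1.1% for post against pre in old, 0.323% and 2.87% for age and stage over all libraries, and 0.019% for their interaction. In that order, 9.12%, 5.02%, 12.4%, 13.1%, 7.37%, 17.6% and 7.45% of all regions had an unadjusted p under 0.05. Members with such a p numbered 2, 2, 2, 1, 1, 2 and 0, or 8.33%, 8.33%, 8.33%, 4.17%, 4.17%, 8.33% and 0.0%.

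Before transplantation these were the Aurkb region outside the gene and the gene end of Cdc45. Aurkb ranked 94.9, 97.8, 96.4 and 92.4 in young pre and 84.1, 94.2, 90.6 and 72.1 in old pre, a difference of -10.1 ± 4.39 (SE, 4 libraries a group, limma adjusted p = 0.482). The 2 groups overlapped, since old pre 2 exceeded young pre 4. The difference was -2.77 with summed area and -5.80 without old pre 4. It turned to 6.63 with area per base. The gene end of Cdc45 ranked 72.2 to 83.4 in young pre and 52.6 to 74.3 in old pre, a difference of -11.0 ± 4.74 (limma adjusted p = 0.481). It was -2.95 with summed area, -3.41 with area per base and -6.09 without old pre 4, and turned to 0.91 with summit q. With Aurka, a mitotic kinase, the group ranges were 26.3 to 44.4 and 19.3 to 40.6.

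After transplantation Mcm6 ranked 40.5, 44.8, 45.0 and 40.7 in young post and 37.5, 34.8, 31.3 and 15.2 in old post, so the groups did not overlap. The difference was -13.1 ± 5.20 (limma adjusted p = 0.858), -8.29 without old post 4 and -3.66 in the 13 longer lists. The Mki67 region 19411 bases outside the gene, which encodes a marker of dividing cells, ranked 55.0 to 63.4 in young post and 66.3 to 78.9 in old post, a difference of 11.6 ± 5.17 (limma adjusted p = 0.858), and of 4.59 with area per base and 4.21 in the 13 longer lists.

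In young donors E2f3 ranked 97.8, 88.9, 97.8 and 92.1 before and 98.5, 98.6, 98.5 and 98.5 after transplantation, a difference of 4.37 ± 1.67 (limma adjusted p = 0.303). It was 2.60 without young pre 2 and 2.33 with summed area, and its sign turned when area per base was ranked (-1.41). Mcm6 went from 29.2, 24.5, 37.6 and 33.3 to 40.5, 44.8, 45.0 and 40.7, without overlap (11.6 ± 4.76, limma adjusted p = 0.326). Ccnb1 ranked 14.1 to 30.7 in young pre and 27.8 to 43.0 in young post. In old donors Cdc6 ranked 4.23, 4.78, 1.04 and 1.87 before and 6.11, 5.90, 10.4 and 7.46 after, without overlap (4.49 ± 1.75, limma adjusted p = 0.274), and the difference was 10.5 in the 13 longer lists. Cdc20 ranked 22.4 to 51.4 in old pre and 17.9 to 29.1 in old post, and Gins2 52.1 to 90.7 and 72.5 to 82.9.

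Because the 3 shortest lists limited which regions could be ranked, the ranks were also taken without old pre 4, young pre 4 and old post 4. This choice was made after seeing the data. In the other 13 libraries 14499 regions were called throughout, 49 of them members, and groups then held 3, 3, 4 and 3 libraries. More regions passed in this fit, both among members and among all regions.

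For old against young before transplantation 4 of 49 members passed, against 779 of 14499 regions (5.37%). An unadjusted p under 0.05 was found in 8 members (16.3%), a smaller share than the 20.9% of all regions. The largest difference was at a region within Cdc45, 8799 bases from the nearer end of the gene (chr16:18788562-18789905). CDC45 is the factor that joins the helicase when an origin fires. For libraries 1 to 3 its rank was 30.0, 19.5 and 16.2 among young pre and 66.9, 60.6 and 59.2 among old pre. It was 31.2, 14.4, 15.3 and 9.3 in young post and 4.3, 17.3 and 32.4 in old post. The 3 old pre libraries stood apart from all 10 others. The difference was 40.2 ± 7.13 points (SE, limma adjusted p = 0.0079, 3 against 3 libraries).

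The peak in this region was 1148 to 1338 bp wide in old pre 1 to 3 and 690 to 1162 bp in young pre 1 to 3. Its deposited summit -log10 q was 4.26, 4.10 and 3.16 in old pre and 3.60, 2.82 and 3.12 in young pre. Young pre 4 and old pre 4 did not call it. Old pre 3, at 59.2, was the only old library here transposed on the same day as young pre 1 to 3. The difference passed with each of the 13 libraries left out in turn (37.3 to 44.7 points), and did not pass when area per base was ranked (32.6, limma adjusted p = 0.162). The gene end of Cdc45 had ranks of 88.6 to 93.3 in young pre and 88.6 to 89.9 in old pre.

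The other 3 members ranked lower in old pre. The region within Cdc6 (chr11:98917101-98918826), the loader of the MCM helicase, ranked 73.2, 84.0 and 76.5 in young pre and 62.2, 61.3 and 46.6 in old pre (-21.2 ± 4.56, limma adjusted p = 0.0208). Aurkb's gene end (chr11:69045316-69046281) ranked 32.3, 47.7 and 38.4 in young pre and 16.9, 16.3 and 17.5 in old pre (-22.7 ± 5.17, limma adjusted p = 0.0263). Cdk1's gene end (chr10:69351867-69353409) ranked 75.1, 82.1 and 77.3 in young pre and 66.6, 66.1 and 46.3 in old pre (-18.5 ± 4.59, limma adjusted p = 0.0372). None of the 3 pairs of groups overlapped. Old pre 1 and 2 were transposed on day 1, and old pre 3 and young pre 1 to 3 on day 2. The part of day in these differences was not tested. The Cdc6 difference did not pass without young pre 2 (-18.1, limma adjusted p = 0.0714). The Aurkb difference did not pass without young pre 2, young pre 3, old pre 1 or old pre 2 (limma adjusted p of 0.0545 to 0.0842). The Cdk1 difference did not pass in 7 of 13 fits that left out a library. None of these 3 passed with area per base ranked.

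After transplantation 0 of 49 members passed for age, against 0.0414% of regions. An unadjusted p under 0.05 was found in 3 members (6.12%), against 5.32% of regions. For the interaction of age and stage 0 of 49 passed, also against 0.0414%. There 4 members (8.16%) had an unadjusted p under 0.05, against 10.5% of regions. At Cdc45 the interaction was -39.8 ± 9.95 points (limma adjusted p = 0.209), and it passed without old post 3 (limma adjusted p = 0.0362), 1 of 13 fits that left out a library.

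For post against pre in old donors 2 of 49 members passed, against 2.88% of regions, and in young donors 0 of 49, against 2.17%. In young donors 3 members (6.12%) had an unadjusted p under 0.05, against 17.1% of regions. In old donors the Cdc45 region fell by 44.3 points (SE 7.28, limma adjusted p = 0.0110). This did not pass without old post 2 (limma adjusted p = 0.0536). Mybl2's gene end (chr2:163054190-163055182), which encodes a subunit of the complex that drives G2 genes, ranked 23.0, 11.0 and 25.2 before and 48.4, 38.8 and 33.5 after (20.5 ± 4.86, limma adjusted p = 0.0441). It did not pass in 10 of 13 fits that left out a library.

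Over both ages 4 of 49 members passed for post against pre, against 7.59% of regions. The gene end of Ccne2 (chr4:11191093-11192529), the cyclin that works with CDK2 at S phase entry, ranked 32.6, 26.3 and 32.9 in young pre and 16.4, 12.6 and 32.7 in old pre. After transplantation it ranked 59.2, 60.9, 37.9 and 55.1 in young post and 57.9, 38.4 and 54.3 in old post. All 7 post libraries thus lay above all 6 pre libraries. The difference was 26.2 ± 5.09 points (limma adjusted p = 0.0107), and it passed with each library left out (23.9 to 29.3). It did not pass with area per base (12.2, limma adjusted p = 0.532). The Ccne2 peak was 499 to 778 bp wide in young pre 1 to 3 and old pre 1 to 3, and 719 to 1387 bp in the 7 post libraries ranked.

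The other 3 were Cdc45, lower after transplantation (-24.4 ± 4.97, limma adjusted p = 0.0140), E2f8 and Mybl2. The E2f8 region lay 27369 bases before the start of the gene (chr7:48908350-48909580), which encodes a repressive E2F factor. Before transplantation it ranked 51.9, 59.2 and 52.3 in young and 45.5, 46.6 and 16.5 in old libraries. Afterwards it ranked 66.1, 63.8, 67.4 and 65.4 in young and 59.9, 65.6 and 63.2 in old ones. All post values thus exceeded all pre values (19.0 ± 4.60, limma adjusted p = 0.0282). Mybl2 rose by 13.4 ± 3.32 points (limma adjusted p = 0.0313). E2f8 did not pass in 7 of 13 fits that left out a library, and Mybl2 in 8 of 13. Old against young over both stages gave 3 of 49 members, against 3.63% of regions, namely Aurkb (-15.7 ± 3.47, limma adjusted p = 0.0302), Cdc6 (-13.6 ± 3.06, 0.0329) and Cdc45 (20.3 ± 4.79, 0.0389). These did not pass in 6, 8 and 9 of 13 fits that left out a library.

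**Figure D5:**
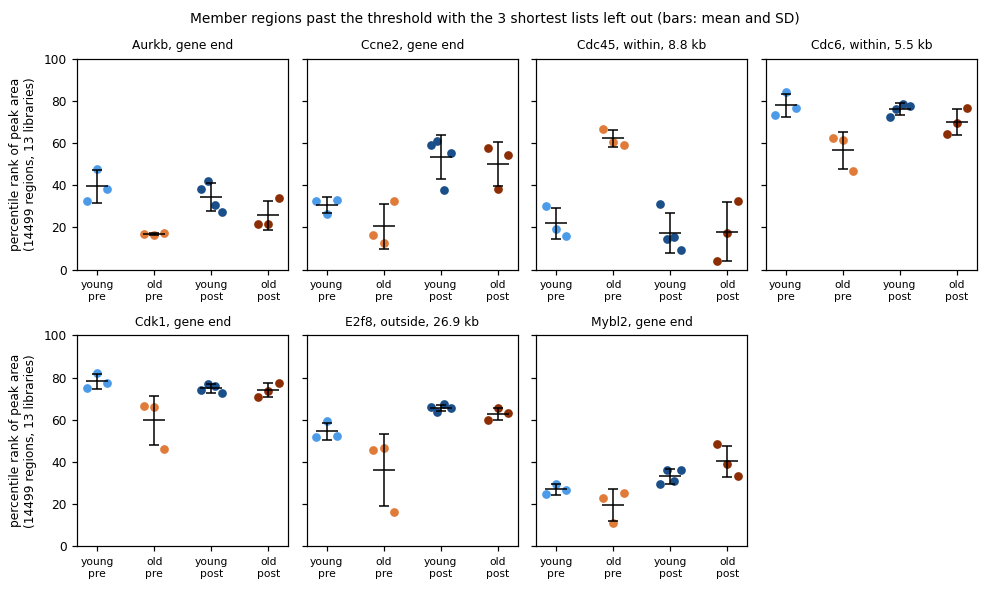
Percentile rank of peak area (y axis, among 14499 regions) in the 13 longer lists for the 7 member regions that passed in any contrast, by group (x axis), with a point per library and the mean and SD as bars. The region within Cdc45 is at 59.2 to 66.9 in old pre and at or below 32.4 in every other library, and Ccne2 is higher in all post than in all pre libraries.

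These members were picked by the test out of 49. The count of 4, 2, 3 and 4 members in the 4 contrasts with a call stood beside background shares of 5.37%, 2.88%, 3.63% and 7.59%, and 0 passed in the other 3 contrasts. In the 4 contrasts with a call, 16.3%, 26.5%, 22.4% and 28.6% of members had an unadjusted p under 0.05. Over all regions the shares were 20.9%, 18.9%, 18.6% and 24.1%. With area per base ranked, 0 of these calls passed. The median difference of the 49 members was -1.70 points for old against young pre and 2.77 for post against pre in old, against -0.22 and 0.52 over all 14499 regions.

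A wider list held a few calls. Of 86 further genes of replication and mitosis, 74 had 132 regions. Of these, 67 were called in 15 or 16 libraries, against 26.2% of all regions. By presence, 1 of 17 tested passed for post against pre in young, against 0.744% of all regions, and 1 of 40 over both ages, against 0.402%. Both were a region at Rfc4 (chr16:23113821-23116055), a subunit of the loader of PCNA. Young pre 1, 2 and 3 and old pre 3 called it, and 0 of the 8 post libraries did (exact test, adjusted p = 0.0017 in young and 0.0147 over both ages). By rank, 2 of 45 regions passed for post against pre in old donors, against 1.1% of all regions, and 2 of 45 over both ages, against 2.87%. They lay at Lig1, the ligase of lagging-strand synthesis, and Cks2, a partner of CDKs. Lig1 ranked 46.4, 36.6, 24.8 and 29.7 in old pre and 63.2, 60.6, 45.8 and 63.7 in old post (23.9 ± 4.93, limma adjusted p = 0.0305). Cks2 ranked 66.4 to 78.0 in old pre and 82.8 to 90.7 in old post (13.1 ± 2.45, limma adjusted p = 0.0178). In young donors the mean rank of Cks2 was 82.4 before and 82.8 after transplantation, and that of Lig1 was 32.7 and 46.8. Alternative settings are not given for Rfc4, Lig1 or Cks2. In the remaining contrasts 0 of this list passed. Of 12 genes of D-type cyclins, their kinases and CDK inhibitors, all had a region, 48 in total. Of these, 13 were called in 15 or 16 libraries, near the share of all regions (26.2%). None of the 6 to 20 regions of these genes tested by presence and 10 by rank passed in any contrast.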

How the data were processed

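ATAC-seq peak lists of 16 libraries were used. The submitters' processing notes name Trim Galore, cutadapt and Genrich and the build mm10, with no settings. Peak area and the capped score are deposited by the authors as scores, where the capped score equals 1000 times area per base up to 1000. Summit p and q were deposited as -log10 values. Of 387029 peaks, 393 (0.102%) lay off chromosomes 1 to 19 and X and were left out. Peaks were called per library, and read depth is unknown.

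Peaks overlapping by at least 1 bp were merged, and genes were the 21631 protein-coding genes of the RefSeq GRCm38.p6 table. Calls were compared with an exact conditional test weighted by the log odds that a Rasch model gives each library. Regions called in 3 to 5 of 8 or 4 to 12 of 16 libraries were tested. For ranks of area, limma 3.58.1 (R 4.3.3) was fitted and donor entered as a random block. Python 3.11.15, numpy 2.4.6, pandas 2.3.3, scipy 1.17.1 and matplotlib 3.10.9 were used, and tests were tried on simulated data. Adjustment was by Benjamini-Hochberg over all regions tested.

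Libraries of the same age and number share donors by the series design. Deviations from group means of such pairs correlated at -0.0670 to 0.0597 for calls and -0.260 to 0.592 for ranks. P-values of limma rest on the spread between libraries. Those of the exact test on calls rest on each library's log odds of a call and measure no spread between replicates. They can thus fall below 0.0286, the smallest p of an unweighted permutation of 4 against 4 libraries. With weights, the test stratified by donor can go below the smallest p of an unweighted one.

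Values per library are given for members past the threshold and for the 3 smallest p in each presence comparison and each rank comparison of single groups. For each role, the gene with most regions and the gene end with the highest rank were also chosen. Alternatives covered weights, thresholds, list length, overlap, gene assignment, value ranked, transposition day, pairing and each library left out. The members and lists were chosen with earlier results of these data known.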

Additional observations from a re-analysis of the deposited data

Results flagged for a closer look

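In groups of 4 libraries, a library was singled out when its gap to the nearest other exceeded Dixon's 95% critical share of the group's range. Of 107 groups tested, 17 had such a library, and chance gives about 1 in 20, or 5.35. All values are percentile ranks of peak area.

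In young pre 4, E2f1 ranked 39.4 (others 11.6 to 15.3), E2f2 64.6 (87.8 to 91.5), E2f8 22.7 (1.05 to 4.70) and Myc 89.7 (98.4 to 98.8). There Mycn ranked 34.2 (95.6 to 96.9), Ccna2 57.0 (21.1 to 25.2) and Mcm7 55.1 (89.6 to 94.2). In old pre 4, E2f2 ranked 53.4 (89.0 to 91.0), Mycn 26.2 (96.9 to 99.0), Aurka 40.6 (19.3 to 22.9) and Mcm7 67.0 (89.4 to 90.4). In old post 4, Mcm7 ranked 57.7 (90.8 to 91.9). These are the 3 shortest lists, and the part of list length was not tested. With the areas of all peaks of the region summed, Mcm7 ranked 89.0, 91.1 and 91.9 in these 3 libraries and 87.8 to 92.3 in the other 13, and Mycn ranked 79.9 in young pre 4 and 72.7 in old pre 4.

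Elsewhere E2f1 ranked 34.3 in old post 1 (15.3 to 17.8) and Cdc25b 46.9 in old post 3 (33.9 to 36.0). In young post, E2f2 ranked 84.7 in library 3 (87.1 to 87.5), E2f8 61.7 in library 4 (6.91 to 9.30) and Myc 98.3 in library 2 (98.9 to 99.0). With summed area, E2f8 ranked 57.6, 57.5, 61.4 and 60.2 in young post, so no library stood apart there.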

How the results depend on the processing

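Counts of members called in the 16-library tests were the same as reported in 297 of 310 alternatives. By presence, post against pre over both ages gave 1 member with regions of at least 3 libraries and 0 to 1 with each library left out. By rank, old against young before transplantation gave 1 with day as a covariate (Cdc25a), 1 with only the libraries of days that hold both ages (Myc) and 4 in the 13 longer lists. Post against pre in old gave 1 with only the libraries of those days (Cdc6) and 2 in the 13 lists, and old against young over both stages gave 3 in the 13 lists. Post against pre over both ages gave 1 with summed area (E2f8), 2 with regions of at least 15 libraries (Ccne2 and E2f8), 1 with genes assigned by gene end (Gins2), 2 without old pre 4 and 4 in the 13 lists. The causes were not tested. The counts in the 13 lists moved often. With each library left out they were 1 to 5 for old against young before transplantation, 0 to 6 for post against pre in old, 0 to 5 for age over both stages and 2 to 7 for stage over both ages. In that order they were 3, 5, 3 and 9 with summit q, 4, 4, 3 and 5 with summed area, and 0 in each with area per base. Without old pre 3, 2 members passed for post against pre in young (Ccne2 and E2f8). Restricting the 13 lists to days that hold both ages leaves 1 old library per stage, so no test on it is given. For single regions, 542 values were unchanged in direction and call, 83 lost and 3 gained the call, and 4 reversed. The reversed were Aurkb before transplantation with area per base (6.63), Cdc45 there with summit q (0.91), and E2f3 with area per base for post against pre in young (-1.41) and over both ages (-7.97).

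With a replicate block (by donor for post against pre, by library number for old against young), the presence test called 0 members in all 6 comparisons. Over all regions it called 4 in place of 24 for age after transplantation, 3 in place of 41 for age over both stages and 39 in place of 61 for stage over both ages. Members with an unadjusted p under 0.05 numbered 0 to 2 per comparison, beside 86 to 582 of the 5163 to 15182 regions tested. As well, by rank in 16 libraries 0 members were called without the donor block and with library number as a block. In the 13 lists without the donor block the counts were 4, 4, 3 and 4, in the order above. Day as a covariate was not run for post against pre, since stage and day cannot be told apart. Read depth is unknown, and short lists limit which regions can be compared.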
